A study of Mus musculus with 12 samples.

Results

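The lesion response pooled over both genotypes is the difference between spinal cord libraries made 4 days after a demyelinating injection (4dpl) and libraries made from unlesioned tissue, with genotype held as a covariate. Its members were chosen by their labels alone and are 6 libraries at 4dpl and 6 unlesioned libraries, so that all 12 of the 12 libraries of the series entered. The question is which transcripts differed between lesioned and unlesioned tissue in mice of either genotype. Control mice were Olig1+/+;Tet1fl/fl and mutant mice were Olig1cre/+;Tet1fl/fl, with 3 libraries in each of the 4 groups. Both genotypes thus carried the floxed Tet1 allele, and cre, present from development on and driven from the Olig1 locus in the oligodendrocyte lineage, was carried by the mutants only. All mice were labelled P60 and the study used either sex. The lesion was made by injecting lysolecithin (LPC), a detergent-like lipid that strips myelin, into the ventrolateral white matter, and the unlesioned tissue was the contralateral side of the cord, not tissue of uninjured mice. Tissue was dissociated and enriched for oligodendroglial cells on a Percoll density gradient without sorting, so every cell type that passed the gradient contributed RNA. The sources do not say which libraries came from separate mice, so p-values measure only the spread between these libraries.

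After demyelination, resident microglia and incoming macrophages take up myelin debris, digest it in lysosomes, and export the released cholesterol through lipid transporters under the control of the sterol sensor LXR. Oligodendrocyte progenitors are recruited at the same time and later mature into cells that rebuild the sheath. In LPC lesions of the spinal cord this sequence runs through an early phase of clearance and recruitment before new myelin forms.

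Library totals ran from 34805086 to 60497880 counts (median 43435225) in unlesioned tissue and from 46226566 to 67251544 counts (median 56068306) at 4dpl. Levels are given as CPM, read counts relative to the size of the library after scaling by the trimmed mean of M values (TMM). At least 1 count was recorded for 40023 to 44516 genes per unlesioned library and for 33964 to 37516 genes per 4dpl library, although the 4dpl libraries were deeper. At a common total of 34805086 counts the expected numbers were 38022 to 44516 and 31730 to 36193. Control unlesioned replicate 1 was the 1 library of the 12 that correlated better with the other state than with its own. Its median Spearman correlation across genes was 0.912 with unlesioned libraries and 0.925 with the 4dpl libraries, while mutant unlesioned replicate 2, at 0.913 and 0.890, had as low a value with its own state. Results that rest on control unlesioned replicate 1 are given with and without it.

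The labelled enrichment was checked against cell type markers. The summed level of the 20 mature oligodendrocyte genes was 16327 to 33700 CPM in unlesioned tissue and 28327 to 80412 CPM at 4dpl, so oligodendrocyte transcripts were present in every library. Other cells were present too. The summed level of 14 neutrophil genes was 33055 to 128447 CPM unlesioned and 23942 to 117122 CPM at 4dpl, and that of 7 erythroid genes was 18361 to 100174 CPM and 12177 to 44507 CPM. For 16 homeostatic microglia genes the sums were 6710 to 17887 CPM and 15373 to 26817 CPM. In such bulk preparations more cells of a type and more RNA per cell cannot be told apart.

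Of 31109 genes tested, 4564 (14.7%) were higher and 5663 (18.2%) lower at 4dpl and 32.9% differed in either direction, by the quasi-likelihood test of edgeR with thresholds of 0.01 for the p-value and 0.05 for its Benjamini-Hochberg adjusted form. The rises and falls were of different kinds. Of the genes that rose, 97.6% were protein coding and 1.62% had an average level under 1 on the log2 CPM scale, and their median log2 fold change was 0.74. Of those that fell, 42.2% were protein coding and 18.6% were pseudogenes, 95.04% had an average level under 1, and the median log2 fold change was -2.48. Among the 13963 genes with an average level of at least 1, 4490 (32.2%) rose, 281 (2.01%) fell, and the median log2 fold change was 0.39. Among the 17146 genes under that level, 74 rose and 5382 fell. All 6 libraries at 4dpl lay above all 6 unlesioned libraries for 2313 genes (7.44%) and below them for 2309 genes (7.42%).

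**Figure D1:**
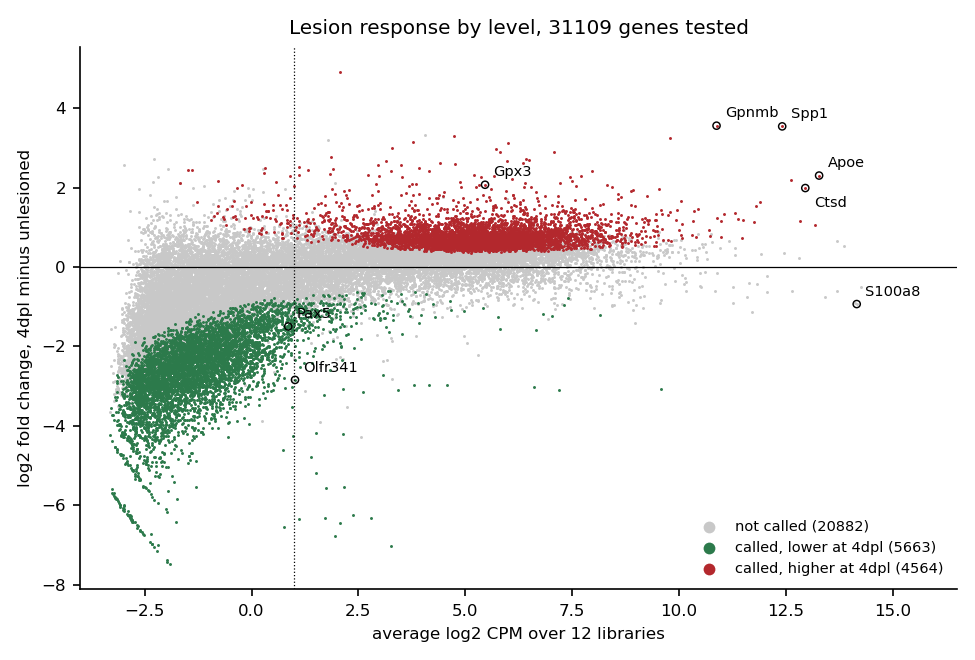
Log2 fold change (4dpl minus unlesioned) against the average log2 CPM over 12 libraries for 31109 genes, with called genes in red (4564 higher) and green (5663 lower), and circles around 8 named genes. The dotted line marks an average log2 CPM of 1, to the right of which 4490 genes rose and 281 fell, while 5382 of the falls lie to its left.

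The balance of rises and falls depends on how the libraries are scaled. TMM factors were 0.881 to 1.30 in unlesioned libraries and 0.806 to 0.932 at 4dpl. With factors taken only from genes with at least 10 counts in every library, a stricter scaling chosen after the data were seen, the median log2 fold change of all tested genes moved from -0.28 to -0.58. The calls then became 1892 higher and 7823 lower, a share of 19.5% higher against 44.6% in the first scaling. DESeq2 called 4243 higher and 8288 lower (33.9% higher), and RLE size factors in edgeR gave 3595 and 6362 (36.1% higher). Requiring an absolute log2 fold change of at least 1 left 861 higher and 5543 lower (13.4% higher). Gene lists below are therefore given with their counts in both scalings. For the first scaling, shares are to be read against the 32.2% of genes at a level of at least 1 that rose. Falls at that level made up 2.01%. In the stricter scaling 1866 genes at that level rose and 805 fell, against 4490 and 281 in the first. List medians are to be read against the median of 0.39 for genes at a level of at least 1 (0.10 in the stricter scaling).

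The smallest adjusted p-value of all genes was that of Gpx3, which encodes a secreted glutathione peroxidase. Gpx3 was at 10.2, 16.98 and 22.7 CPM (lowest, median and highest) in the 6 unlesioned libraries and at 49.6, 70.5 and 90.3 CPM in the 6 libraries at 4dpl. The groups did not overlap, and the log2 fold change was 2.07 (standard error 0.20, adjusted p = 0.000723). Slc27a1, a fatty acid transporter, went from a median of 41.7 CPM to 109 CPM (log2 fold change 1.42, standard error 0.16), and Rab11fip5, an effector of recycling endosomes, from 21.8 to 60.5 CPM (1.39, standard error 0.16). Both were also separated between the groups. Nrp2, a receptor for semaphorins and vascular growth factors, rose by 1.96 on the log2 scale (standard error 0.25). These genes had small errors beside their changes, which their choice by smallest p-value required. They kept log2 fold changes of 1.11 to 1.78 in the stricter scaling.

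The largest rises among well-expressed genes with separated libraries were led by Gpnmb and Spp1. Gpnmb, a membrane glycoprotein of phagocytes that carry lipid, was at 18.3, 188 and 805 CPM in unlesioned tissue and at 1347, 3552 and 5022 CPM at 4dpl. Every 4dpl library lay above every unlesioned one, and the log2 fold change was 3.56 (standard error 0.75, adjusted p = 0.00429). Spp1, which encodes osteopontin, a secreted matrix protein and cytokine, was at 93.2, 540 and 2396 CPM and at 4080, 10587 and 16408 CPM (3.54, standard error 0.57, adjusted p = 0.00186). Again the groups were separated. As a ratio of highest to lowest, unlesioned levels of Gpnmb and Spp1 spread far more widely than those at 4dpl. In CPM the standard deviations were larger at 4dpl, at 1528 against 303 for Gpnmb and 4328 against 1048 for Spp1. Without control unlesioned replicate 3 the log2 fold change of Gpnmb was 4.31.

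Behind them came Atp6v0d2, a subunit of the vacuolar proton pump (log2 fold change 3.30, standard error 0.49), the serotonin receptor Htr2b (3.16, standard error 0.60, and 3.89 without control unlesioned replicate 3), Cd5l, a protein secreted by macrophages (3.01, standard error 0.48), and the growth factor Igf1 (2.98, standard error 0.48). Igf1 was at 4.41, 7.86 and 23.5 CPM unlesioned and at 32.3, 101 and 145 CPM at 4dpl, with no overlap. Ecm1, Fblim1, Folr2, Colec12, Gstm2 and Ahnak2 completed the 12 largest rises, with log2 fold changes between 2.42 and 2.71. Ecm1 is a secreted matrix protein, Fblim1 a filamin-binding adhesion protein, Folr2 a folate receptor of tissue macrophages and Gstm2 a glutathione transferase. All 12 lay higher in every 4dpl library than in any unlesioned library, which the rule for naming them required.

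**Figure D2:**
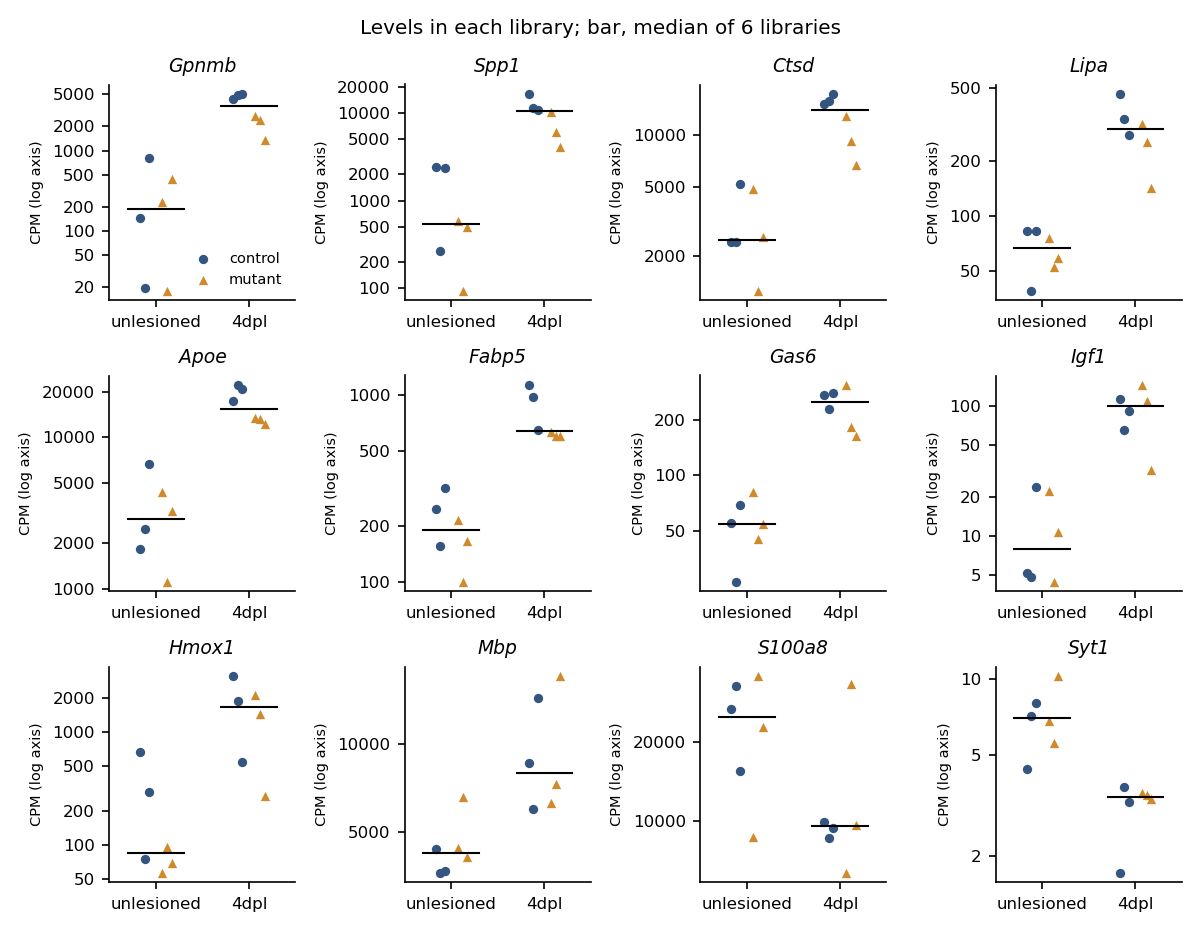
CPM on a log axis for 12 genes in unlesioned and 4dpl libraries, with circles for control, triangles for mutant libraries and a bar for the median of 6. Gpnmb, Spp1, Ctsd, Lipa, Apoe, Fabp5, Gas6 and Igf1 are separated between the states upward and Syt1 downward, while Hmox1, Mbp and S100a8 overlap.

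Nearly the whole set of lysosomal enzymes was higher after the lesion. Of 40 lysosomal hydrolases tested, 39 rose and 0 fell, against 14.7% and 18.2% of all genes, with a median log2 fold change of 1.32, and 34 were separated between the groups. In the stricter scaling 37 rose and the median was 1.06. The single member that missed the threshold was Neu1, a sialidase, at 0.44 (standard error 0.17, adjusted p = 0.053). The list covers proteases, lipases, glycosidases and sulfatases. The list was also averaged in each library, as log2 CPM relative to each gene's mean over the unlesioned libraries. This mean was -0.49 to 0.48 in unlesioned tissue and 0.99 to 1.61 at 4dpl.

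Among the proteases, cathepsin D (Ctsd) was at 1264, 2479 and 5188 CPM unlesioned and at 6706, 13897 and 17092 CPM at 4dpl (log2 fold change 1.99, standard error 0.35, adjusted p = 0.00234). Cathepsin B (Ctsb) went from 923, 2282 and 3384 CPM to 5500, 11519 and 13237 CPM (2.18, standard error 0.34, adjusted p = 0.00172). Neither overlapped between the states. Among enzymes that degrade lipids, Lipa, the acid lipase that frees cholesterol from its esters, was at 39.3, 67.4 and 82.7 CPM and at 142.8, 296.5 and 460 CPM (2.16, standard error 0.25, adjusted p = 0.00138). Galc, which splits the myelin lipid galactosylceramide, rose by 1.18 (standard error 0.16) and Pld3, a lysosomal nuclease of the phospholipase D family, by 2.01 (standard error 0.27) on the log2 scale. All of these were separated between the groups.

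Because these genes moved together, their promoters were searched for the letters of the CLEAR element, GTCACGTG on either strand, the motif bound by the lysosomal regulator TFEB and its relatives. Windows reached from 250 bases before to 50 bases after the RefSeq start in GRCm38.p6, and 27025 gene symbols had one, among them 3602 of the 4564 genes that rose. The motif was in 6 of 32 promoters of the hydrolase list (18.8%), in 4 of 26 promoters of lysosomal membrane and pump genes (15.4%), and in 630 of all 27025 promoters (2.33%). It was also in 2 of 19 promoters of cytosolic ribosomal protein genes (10.5%), 1 of 16 of disease-associated microglia genes (6.25%), 0 of 22 of iron and heme genes and 0 of 18 of interferon-stimulated genes. It was in 5.77% of the promoters of genes that rose, 0.975% of those of genes that fell, and 3.44% of those of genes at a level of at least 1 that were not called. The shorter core CACGTG, which every CLEAR match contains, was in 12.7%, 5.04% and 8.74% of the same groups and in 7.24% of all promoters. A match is a description of letters and not of binding.

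The hydrolase promoters that hold the motif are shown up to 40 bases to each side of the match nearest the upstream end, within the 250 bases before the start, 5′ to 3′ on the strand of the gene. Capitals mark the motif, which reads CACGTGAC where it lies on the opposite strand. A window of Mcoln1, a calcium channel of the lysosomal membrane, is added because it holds the motif at a pair of positions.
Ctsd, chr7:142388025-142388077, minus strand: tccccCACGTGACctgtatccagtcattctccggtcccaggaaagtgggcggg
Gla, chrX:134601154-134601241, minus strand: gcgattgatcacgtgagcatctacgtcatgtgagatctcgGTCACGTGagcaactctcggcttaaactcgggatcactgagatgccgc
Glb1, chr9:114400988-114401075, plus strand: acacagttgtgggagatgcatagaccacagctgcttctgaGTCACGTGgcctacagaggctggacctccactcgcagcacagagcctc
Arsa, chr15:89477425-89477482, minus strand: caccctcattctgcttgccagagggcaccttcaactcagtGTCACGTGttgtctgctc
Naglu, chr11:101069979-101070066, plus strand: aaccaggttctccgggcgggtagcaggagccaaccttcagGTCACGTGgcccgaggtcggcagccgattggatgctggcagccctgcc
Sgsh, chr11:119355511-119355579, minus strand: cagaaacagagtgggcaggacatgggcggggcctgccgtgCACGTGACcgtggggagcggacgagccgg
Mcoln1, chr8:3500406-3500493, plus strand: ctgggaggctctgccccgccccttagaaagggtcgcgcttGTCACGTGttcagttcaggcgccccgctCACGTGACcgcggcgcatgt
Beside Ctsd, the genes with these windows rose by 1.80 (Gla), 1.48 (Glb1), 1.65 (Naglu), 0.82 (Sgsh), 0.76 (Arsa) and 0.86 (Mcoln1) on the log2 scale. Lamp1 also held the motif and was not called, at 0.39, so carriers included larger rises, smaller rises and uncalled genes.

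Other motifs were searched in the same windows on both strands. The antioxidant response letters TGACNNNGC were in 15.1% of promoters of genes that rose, 11.1% of those that fell and 12.5% of all. The AP-1 letters TGANTCA were in 5.02%, 11.98% and 7.93%, and the PU.1 letters GAGGAAGT in 3.72%, 2.64% and 3.28%. Genes at a level of at least 1 that were not called held them at 14.5%, 5.11% and 3.15%. Of the genes that fell, 95.04% had an average level under 1, so these groups of promoters differ in expression level as well as in direction.

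The lysosomal membrane and the proton pump that acidifies it rose in 27 of 32 members, with 0 falls and a median of 0.82, and in 17 of 32 under the stricter scaling. Cd68, a lysosomal glycoprotein of phagocytes, was at 154, 313 and 440 CPM unlesioned and at 610, 1302 and 1487 CPM at 4dpl (log2 fold change 1.97, standard error 0.27, adjusted p = 0.00138). The tetraspanin Cd63 rose by 1.34 (standard error 0.18), the sialic acid exporter Slc17a5 by 1.23 (standard error 0.18), the pump subunit Atp6v1a by 1.27 (standard error 0.17) and the membrane protein Lamp2 by 1.19 (standard error 0.24). Lamp1 was not called, at 0.39 (standard error 0.31), and its libraries overlapped, with 386 to 866 CPM unlesioned and 388 to 2162 CPM at 4dpl. Among 26 autophagy genes, 9 rose and 0 fell (median 0.38, 5 in the stricter scaling, 17 without control unlesioned replicate 1), led by the receptor Sqstm1 at 0.94 (standard error 0.21). The share of autophagy genes that rose, 34.6%, was near the 32.2% of all genes at a level of at least 1.

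Genes that handle lipid rose next to those of the lysosome. In the list of sterol efflux and LXR targets 13 of 20 rose and 0 fell, with a median of 0.85, and 9 rose in the stricter scaling. Apoe, the main lipid carrier of the nervous system, was at 1117, 2888 and 6656 CPM unlesioned and at 12315, 15393 and 21997 CPM at 4dpl (log2 fold change 2.30, standard error 0.38, adjusted p = 0.00197). Abca1, which loads cholesterol onto such carriers, went from 37.2, 74.0 and 119 CPM to 143, 347 and 427 CPM (2.03, standard error 0.33, adjusted p = 0.00186). Its partner Abcg1 rose by 1.002 (standard error 0.19) and Apoc1 by 2.29 (standard error 0.40). The 4dpl libraries were above all unlesioned libraries for each of these genes.

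Of 28 genes for lipid droplets, PPAR targets and fatty acid use, 17 rose and 1 fell (median 0.73), and 13 rose and 1 fell in the stricter scaling. Fabp5, a fatty acid-binding protein, was at 101, 191 and 316 CPM unlesioned and at 598, 642 and 1120 CPM at 4dpl, without overlap (log2 fold change 1.93, standard error 0.23, adjusted p = 0.00138). Angptl4, a PPAR target that inhibits lipoprotein lipase, rose by 2.56 (standard error 0.34), Fabp3 by 2.33 (standard error 0.36), the droplet coat protein Plin2 by 1.76 (standard error 0.33) and Soat1, which esterifies cholesterol for storage, by 1.41 (standard error 0.23). The member that fell was Cidec, another droplet protein, at 0.498 to 0.918 CPM unlesioned and 0.0227 to 0.230 CPM at 4dpl.

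Cholesterol synthesis gave few calls. Of 25 enzymes 3 rose (median 0.53), namely Ebp at 0.63 (standard error 0.15), Dhcr7 at 0.82 (standard error 0.27) and Sc5d at 0.76 (standard error 0.25), and 0 rose in the stricter scaling. Hmgcs1, an early enzyme of the pathway, was not called by edgeR (log2 fold change 0.79, standard error 0.31, adjusted p = 0.0551). The count was 1 to 17 with any 1 library left out. It was 17 without control unlesioned replicate 1, with Hmgcs1 at 1.09 among them, 7 without mutant unlesioned replicate 1, 5 without mutant 4dpl replicate 1, and 1 without any of 6 others. Dhcr7 was highest in mutant 4dpl replicate 3, at 138 CPM against 50.6 to 61.0 CPM in the other 4dpl libraries, and without that library it was at 0.57 and not called.

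Receptors and bridging molecules for phagocytosis rose in 18 of 30 members with 0 falls (median 0.83), and in 14 under the stricter scaling. Gas6, a bridge between exposed phosphatidylserine and the TAM receptors, was at 26.5, 54.8 and 81.4 CPM unlesioned and at 164, 252 and 308 CPM at 4dpl (log2 fold change 2.12, standard error 0.26, adjusted p = 0.00138). Mfge8, a bridge to integrins, rose by 1.44 (standard error 0.21). Both bridges were separated between the groups. Of the TAM receptors, Mertk rose by 1.39 (standard error 0.31) and Axl by 1.33 (standard error 0.36), with overlapping libraries. The scavenger receptors Stab1 (2.29, standard error 0.37) and Colec12 (2.50, standard error 0.31) were separated.

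Microglial genes rose in both of their usual groupings. Of 20 disease-associated microglia genes 15 rose and 0 fell (median 1.34), and 15 rose in the stricter scaling. The mean of this list was -0.94 to 0.72 in unlesioned libraries and 1.01 to 2.23 at 4dpl. Of the 15 that rose, 12 also stand in other lists, Ctsb, Ctsd, Apoe, Fabp5 and Spp1 among them, so this count is in large part not separate from theirs. The list also holds the protease inhibitor Cst7, at 21.1, 36.2 and 47.2 CPM unlesioned and at 48.0, 90.2 and 110.5 CPM at 4dpl (log2 fold change 1.31, standard error 0.19, adjusted p = 0.00156).

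Of 16 homeostatic microglia genes 11 rose and 0 fell (median 1.08), with 6 rising in the stricter scaling. The purinergic receptor P2ry12 was at 103, 234 and 648 CPM unlesioned and at 360, 544 and 802 CPM at 4dpl, overlapping (log2 fold change 1.09, standard error 0.33, adjusted p = 0.0198). Tmem119 was at 0.82 (standard error 0.27), the fractalkine receptor Cx3cr1 at 1.08 (standard error 0.28), the Fc receptor-like gene Fcrls at 1.79 (standard error 0.44) and Tgfbr1 at 1.21 (standard error 0.29). The libraries were separated for 1 of the 16 members. The calls of P2ry12 and Tmem119 were lost in the stricter scaling, at 0.82 and 0.55, and in 3 and 8 of the 12 fits that left out 1 library.

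Macrophage and monocyte genes were mixed. Of 17 members 5 rose (29.4%, near the 32.2% of all genes at a level of at least 1) and 0 fell (median 0.13). The stricter scaling gave 4 rises and 3 falls. With any 1 library left out 3 to 7 rose, 3 of them without control unlesioned replicate 2 or 3 and 7 without control unlesioned replicate 1, and 2 fell without mutant unlesioned replicate 1 or mutant 4dpl replicate 2. Those that rose were Pf4 (log2 fold change 2.89, standard error 0.40), Ms4a7 (3.11, standard error 0.53), Fn1 (1.92, standard error 0.36), the mannose receptor Mrc1 (1.48, standard error 0.45) and Arg1, named after its values were seen. Ms4a7, a marker of macrophages of blood and borders, was at 2.40, 9.17 and 47.8 CPM unlesioned and at 36.8, 112 and 190 CPM at 4dpl, with an overlap and a log2 fold change of 3.71 without control unlesioned replicate 3. Ccr2, the chemokine receptor of inflammatory monocytes, was not called, at 54.7, 66.1 and 164 CPM and at 56.1, 105 and 160 CPM (0.30, standard error 0.29, adjusted p = 0.42). Arg1 was at 407 CPM in control unlesioned replicate 1 and at 1.38 to 20.3 CPM in the other unlesioned libraries, against 30.7 to 432 CPM at 4dpl. Its log2 fold change was 2.90 with that library and 4.52 without it.

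Among 20 complement genes 9 rose and 0 fell (median 0.57, 7 in the stricter scaling). The subunits of the initiator C1q moved together, with log2 fold changes of 1.17 for C1qa, 1.20 for C1qb and 1.24 for C1qc (standard errors 0.27, 0.27 and 0.28). C3ar1, the receptor for the C3a fragment, was at 48.6, 130 and 207 CPM unlesioned and at 277, 592 and 660 CPM at 4dpl (2.06, standard error 0.34, adjusted p = 0.00201). All of these were separated between the states.

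Calls among antigen presentation and interferon genes changed with 1 library and with the test. Of 20 genes for MHC and antigen presentation 4 rose (median 0.39), namely Cd86, H2-DMa, H2-DMb1 and B2m, with 1 in the stricter scaling, 12 without control unlesioned replicate 1, and 2 to 4 with any other library left out. With that library in, DESeq2 and limma voom each called 4 and limma voom with sample weights 12. The class II gene H2-Ab1 was at 643 CPM in that library and at 99.5 to 187 CPM in the other unlesioned libraries, against 158 to 606 CPM at 4dpl. With it the log2 fold change was 0.71 (standard error 0.38) and H2-Ab1 was not called, and without it 1.25 and called, as was H2-Aa (0.79 with and 1.26 without). Of 25 interferon-stimulated genes 0 rose and 0 fell by edgeR in either scaling (median -0.08). At an unadjusted p-value under 0.05, 1 was higher and 0 lower. DESeq2 called 0, limma voom 1 rise, limma voom with sample weights 4 rises, and edgeR 6 rises without that library. Ifit1 was at -0.53 (standard error 0.53) with it and 0.50 without it.

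Among 31 chemokine and cytokine genes 9 rose and 1 fell (median 0.48), with 3 rises and 1 fall in the stricter scaling. Cxcl14 was at 1.91, 5.06 and 9.65 CPM unlesioned and at 10.1, 23.3 and 31.3 CPM at 4dpl, separated (log2 fold change 2.09, standard error 0.27, adjusted p = 0.00138). Cxcl16 rose by 1.39 (standard error 0.27), Ccl2, which attracts monocytes, by 1.05 (standard error 0.23) and Ccl3 by 0.82 (standard error 0.21), the last not in the stricter scaling. Cxcl12, a ligand made by vascular and stromal cells, fell by 1.23 (standard error 0.27).

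Growth factors and trophic ligands rose in 7 of 24 members and fell in 1 (median 0.29, 4 rises and 2 falls in the stricter scaling), a share of 29.2% that is near the 32.2% of all genes at a level of at least 1. Beside Igf1 and Gas6, Fgf1 was at 21.96, 35.2 and 59.7 CPM unlesioned and at 60.2, 72.3 and 125.5 CPM at 4dpl (log2 fold change 1.08, standard error 0.25, adjusted p = 0.00604), separated by a narrow margin. Gdf15, a stress-induced ligand, rose by 2.08 (standard error 0.41), and its unlesioned level was highest in control unlesioned replicate 1, without which the log2 fold change was 2.51. Sema3a, a repellent for axons and progenitors, fell by 1.47 (standard error 0.35).

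In the matrix and adhesion list 8 of 27 genes rose and 2 fell (median 0.81, 7 rises and 3 falls in the stricter scaling). The share of rises, 29.6%, was near the 32.2% of all genes at a level of at least 1, whose median was 0.39. Fibronectin (Fn1) was at 88.6, 139 and 538 CPM unlesioned and at 323, 805 and 1067 CPM at 4dpl, and the overlap came from control unlesioned replicate 1. The log2 fold change of Fn1 was 1.92 with that library and 2.45 without it. The integrin subunit Itgb1 rose by 1.34 (standard error 0.27), and Lama2, a laminin chain of basement membranes, fell by 1.65 (standard error 0.32). Of 24 matrix proteases and inhibitors 10 rose and 0 fell (median 0.98, 8 in the stricter scaling), among them the macrophage elastase Mmp12 (2.42, standard error 0.44), Mmp14 (1.56, standard error 0.33), Mmp2 (1.08, standard error 0.27) and Adam9 (1.55, standard error 0.31).

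Genes for iron, heme and antioxidant defence rose in 9 of 32 members, fell in 0 (median 0.38), with 9 rises and 1 fall in the stricter scaling. The share of 28.1% was not above that of all genes at a level of at least 1, 32.2%, in the first scaling. In the stricter scaling the list kept 9 rises, while those of all genes at that level went from 4490 to 1866. The ferritin heavy chain Fth1 was at 4586, 5820 and 8525 CPM unlesioned and at 10181, 12408 and 15872 CPM at 4dpl, with no overlap (log2 fold change 1.06, standard error 0.23, adjusted p = 0.00438). The light chain Ftl1 rose by 1.54 (standard error 0.28) and peroxiredoxin Prdx1 by 1.40 (standard error 0.23). Heme oxygenase (Hmox1) was at 56.8, 85.3 and 666 CPM and at 268, 1661 and 3103 CPM (3.26, standard error 0.63, adjusted p = 0.00319). The groups overlapped, and control unlesioned replicate 1, at 666 CPM, lay above the lowest library at 4dpl, at 268 CPM. The overlap did not rest on control unlesioned replicate 1 alone. Without that library the log2 fold change was 3.78.

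Few oligodendrocyte genes passed the test. Of 20 mature oligodendrocyte and myelin genes 3 rose and 0 fell (median 0.59), 1 rose in the stricter scaling, and 2 to 5 rose with any 1 library left out, 5 of them without mutant unlesioned replicate 1. Mbp, the myelin basic protein gene, was at 3642, 4264 and 6616 CPM unlesioned and at 6007, 7966 and 17070 CPM at 4dpl, overlapping (log2 fold change 1.16, standard error 0.31, adjusted p = 0.0115). Mobp rose by 1.16 (standard error 0.27), with separated libraries, and Anln by 0.80 (standard error 0.25). The mean of the list was 1.71 in mutant 4dpl replicate 3 and 0.33 to 0.55 in the other 4dpl libraries, against -0.93 to 0.56 in unlesioned tissue.

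Of 9 premyelinating oligodendrocyte genes tested 2 rose (median 0.68, 1 in the stricter scaling), namely Bcas1, at 102, 119 and 222 CPM unlesioned and 183, 268 and 566 CPM at 4dpl (log2 fold change 1.27, standard error 0.31, adjusted p = 0.0069), and Sirt2 at 0.78 (standard error 0.23). Enpp6, which marks newly formed oligodendrocytes, was at 0.74 (standard error 0.27) and did not pass the p-value of 0.01. The count was 4 without mutant unlesioned replicate 1 and 1 without mutant 4dpl replicate 3. Of 12 progenitor genes 2 rose (median 0.28), Cspg4 at 1.49 (standard error 0.33) and Lhfpl3 at 1.18 (standard error 0.35), with 1 rise and 2 falls in the stricter scaling, 5 rises without mutant unlesioned replicate 1 and 1 rise without control unlesioned replicate 1 or 2. Pdgfra, the growth factor receptor of progenitors, was at 8.38, 12.9 and 31.1 CPM and at 20.6, 23.4 and 47.9 CPM (0.91, standard error 0.31, adjusted p = 0.0315) and was not called. Cspg4 is also expressed by pericytes, which the preparation could hold.

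The astrocyte list rose in 2 of 15 members, Gfap and Aldoc (median 0.39, 1 rise and 1 fall in the stricter scaling). Gfap, the filament protein of reactive astrocytes, was at 22.9, 48.2 and 57.9 CPM unlesioned and at 105, 153 and 209 CPM at 4dpl (log2 fold change 1.88, standard error 0.24, adjusted p = 0.00138), without overlap. Of 16 reactive astrocyte genes 3 rose and 1 fell (median 0.24, likewise 3 and 1 in the stricter scaling). The serpin Serpina3n was at 23.8, 49.4 and 132 CPM and at 189, 272 and 418 CPM (2.26, standard error 0.34), Emp1 rose by 2.67 (standard error 0.45, and by 3.33 without control unlesioned replicate 1), Hspb1 was the other riser, and the cytokine receptor Osmr fell by 1.605 (standard error 0.30). Lcn2, which neutrophils also express, was at -0.76 (standard error 0.41) and was not called.

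Markers of blood and vascular cells rose in few cases. In the neutrophil list 0 of 14 rose and 1 fell, Elane (median -0.90, 5 falls in the stricter scaling). S100a8 was at 8664, 24733 and 35425 CPM unlesioned and at 6371, 9547 and 33056 CPM at 4dpl (log2 fold change -0.93, standard error 0.45, adjusted p = 0.105). The high value at 4dpl was that of mutant 4dpl replicate 2, against 6371 to 9937 CPM in the other 5 libraries, and without it 9 of the 14 fell, S100a8 and S100a9 at -1.42 and -1.38 among them. The count of falls was 5 without mutant unlesioned replicate 1 and 0 to 2 without any other library. In the B and plasma cell list 0 of 10 rose and 2 fell, Pax5 at -1.50 (standard error 0.32) and Ebf1 (median -0.48), with 4 falls in the stricter scaling and 1 to 3 when any 1 library was left out. In the T and NK cell list 0 of 14 were called by edgeR (median 0.05), with 0 higher and 1 lower at an unadjusted p-value under 0.05, 1 fall by edgeR in the stricter scaling, 1 fall by DESeq2, 0 calls by limma voom and 1 rise by limma voom with sample weights. Of 7 erythroid genes 0 were called by edgeR in either scaling, DESeq2 or either limma fit (median -0.50), and 0 had an unadjusted p-value under 0.05. Of 14 endothelial genes 1 rose, Slc2a1, and 1 fell, Emcn at -1.35 (standard error 0.29), with a median of -0.27, 0 rises and 2 falls in the stricter scaling and 1 or 2 falls when any 1 library was left out. Of 13 mural and fibroblast genes 3 rose, Col1a1 at 1.55 (standard error 0.40), Col1a2 at 1.601 (standard error 0.34) and Cspg4, and 1 fell, Myh11 at -1.89 (standard error 0.47), with a median of -0.51 and 3 rises and 3 falls in the stricter scaling. Of 12 ependymal genes 0 rose and 1 fell, Spag17 (median 0.04, likewise 0 and 1 in the stricter scaling). The part of these cells in the other changes was not tested.

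Cell division genes were mostly uncalled. Of 35 members 3 rose and 0 fell (median 0.04), namely Pcna at 0.49 (standard error 0.14), Ccnd1 at 0.77 (standard error 0.25) and Tubb5, and 0 rose and 2 fell in the stricter scaling. With any 1 library left out 0 to 7 rose, 7 of them without control unlesioned replicate 1, 5 without mutant 4dpl replicate 3 and 0 without mutant unlesioned replicate 3. Mki67, expressed in dividing cells, was at 61.1, 98.8 and 159 CPM unlesioned and at 41.1, 86.9 and 112 CPM at 4dpl (log2 fold change -0.28, standard error 0.26, adjusted p = 0.383). Its states overlapped, its log2 fold change lay below 0, and a rise of Mki67 was not called.

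Housekeeping groups moved by small amounts that depend on scaling. Of 30 cytosolic ribosomal protein genes 14 rose (median 0.43), of 26 nuclear genes for oxidative phosphorylation 18 rose (median 0.52), and of 27 genes of glycolysis and the pentose phosphate path 9 rose (median 0.48), all with 0 falls. Without control 4dpl replicate 2, 9 ribosomal protein genes rose. In the stricter scaling the rises were 0, 3 and 3, with 1 fall among the glycolysis genes, and with medians of 0.13, 0.22 and 0.18. Rpl3 was at 0.61 (standard error 0.14) in the first and 0.32 in the second scaling. Sdhc, a subunit of succinate dehydrogenase, was at 0.76 (standard error 0.13), Ndufs1 at 0.72 (standard error 0.15), Pfkl, a phosphofructokinase, at 1.13 (standard error 0.19) and Tpi1 at 0.94 (standard error 0.18). The list medians are to be set beside the medians of 0.39 and 0.10 for genes at a level of at least 1 in these scalings.

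Stress genes rose in part. Of 26 chaperone and integrated stress response genes 15 rose and 0 fell (median 0.54, 9 in the stricter scaling), among them the calcium-binding chaperones of the endoplasmic reticulum Calr at 1.15 (standard error 0.23) and Canx at 1.27 (standard error 0.21), and mitochondrial Hspd1 at 0.81 (standard error 0.16). Immediate early genes, which tissue dissociation can also induce, rose in 8 of 23 members with 0 falls (median 0.42, 3 rises and 1 fall in the stricter scaling), a share of 34.8% that is near the 32.2% of all genes at a level of at least 1. Fos was at 1734, 2018 and 2818 CPM unlesioned and at 2488, 2966 and 3452 CPM at 4dpl (log2 fold change 0.49, standard error 0.20, adjusted p = 0.0639). Egr2 rose by 0.95 (standard error 0.23) and Atf3 by 0.79 (standard error 0.19). The part of dissociation in these values was not tested.

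Among 26 transcription factors of the myeloid and lesion response 11 rose and 1 fell (median 0.56, 4 rises and 2 falls in the stricter scaling). Hif1a, the hypoxia-inducible factor, was at 33.7, 64.4 and 151 CPM unlesioned and at 146, 234 and 300 CPM at 4dpl (log2 fold change 1.44, standard error 0.32, adjusted p = 0.00513). Irf8, a regulator of microglial identity, rose by 0.75 (standard error 0.18), with separated libraries. The member that fell was Cebpd, named after its values were seen for being the single fall, and its call was lost in 8 of the 12 fits that left out 1 library.

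Genes of DNA methylation and hydroxymethylation, the subject of the study, with readers, repair enzymes and enzymes that supply a cofactor among them, rose in 5 of 19 members with 0 falls (median 0.31, 1 in the stricter scaling), a share of 26.3% beside the 32.2% of all genes at a level of at least 1. Dnmt3a, a de novo methyltransferase, was at 46.2, 74.9 and 103 CPM unlesioned and at 108.5, 126 and 153 CPM at 4dpl (log2 fold change 0.74, standard error 0.18, adjusted p = 0.00784). Idh1 was at 0.92 (standard error 0.21), and Idh2, Mbd1 and Smug1 were the others, named after their values were seen. Idh1 and Idh2 are isocitrate dehydrogenases, which make the cofactor of the Tet enzymes, Mbd1 binds methylated DNA and Smug1 is a repair glycosylase. Without control unlesioned replicate 1, 9 members rose. The hydroxymethylating enzymes themselves were not called. Tet1 was at -0.08 (standard error 0.21, adjusted p = 0.765), Tet2 at 0.31 (standard error 0.17, adjusted p = 0.159) and Tet3 at 0.05 (standard error 0.14, adjusted p = 0.776).

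Of 18 solute carriers taken from the study 12 rose and 0 fell (median 0.82, 10 in the stricter scaling). The study chose this list on these samples, so its direction is not independent evidence. Slc37a2, a sugar phosphate exchanger of macrophages, was at 22.4, 47.2 and 67.3 CPM unlesioned and at 90.3, 165 and 224 CPM at 4dpl (log2 fold change 1.75, standard error 0.29, adjusted p = 0.00191). Slc39a14, a zinc and iron importer, rose by 1.63 (standard error 0.26), and Slc36a4, an amino acid transporter, by 1.41 (standard error 0.23). Slc12a2, the sodium, potassium and chloride cotransporter, was at 85.4, 132 and 175 CPM and at 103, 135 and 428 CPM (0.35, standard error 0.31, adjusted p = 0.369). Its highest value was that of mutant 4dpl replicate 3, and without this library the log2 fold change was -0.01.

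**Figure D3:**
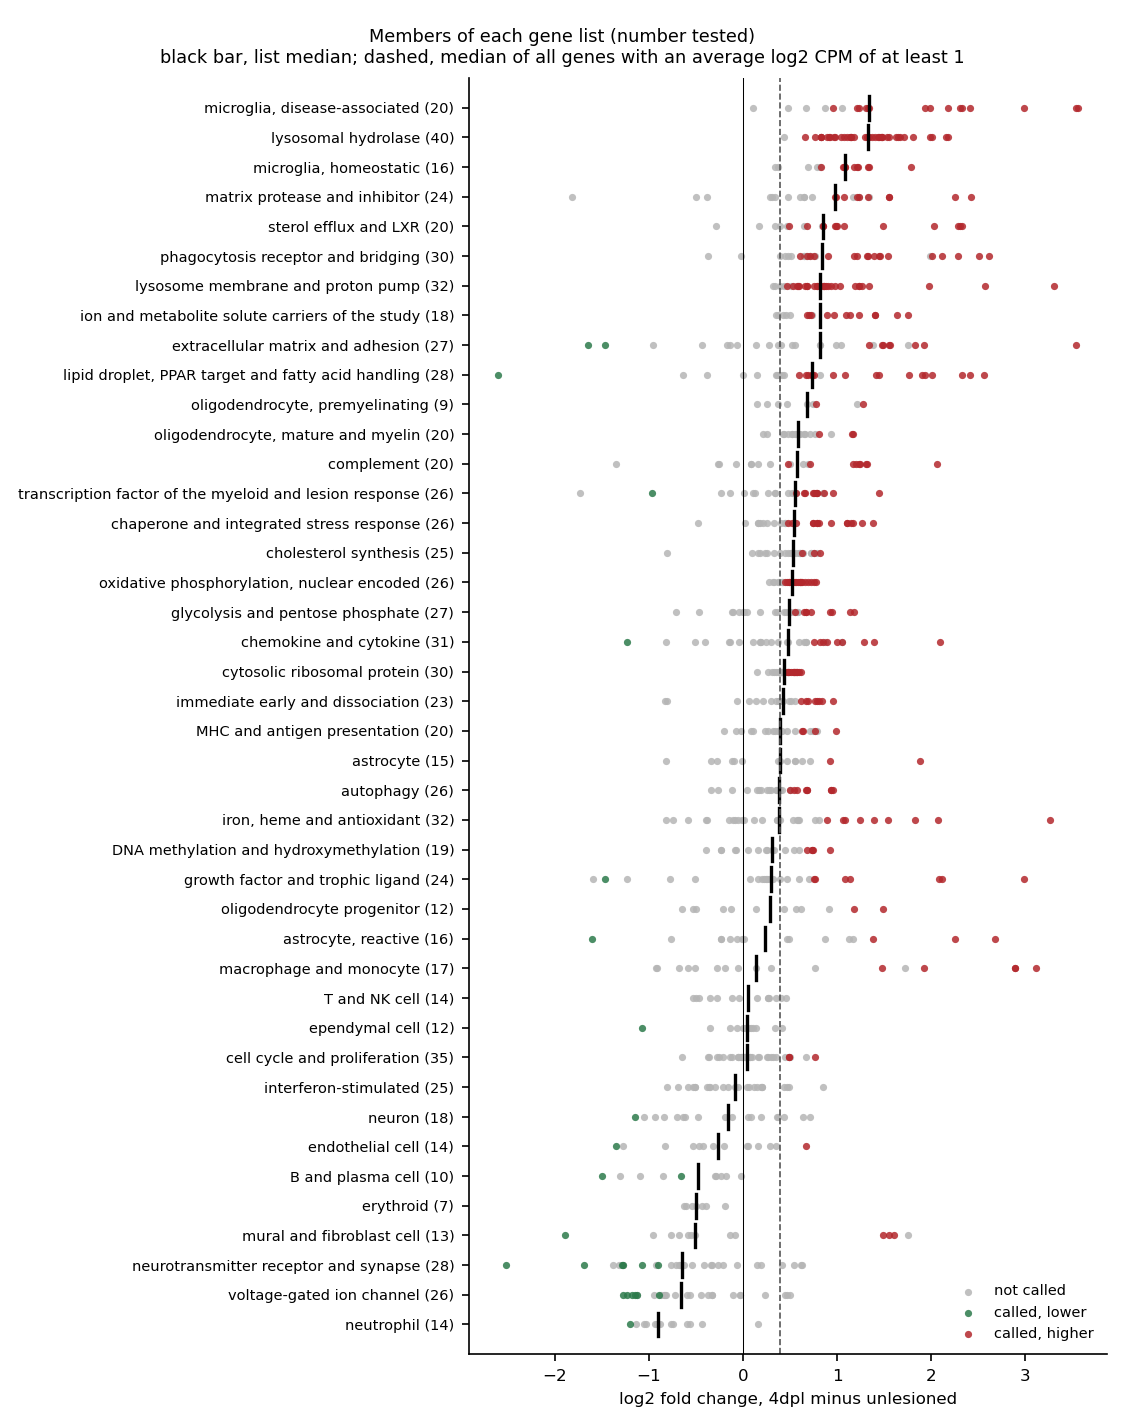
Log2 fold change (4dpl minus unlesioned) of each tested member of 42 gene lists, one row a list with the number tested in brackets, members called higher in red, called lower in green and not called in grey. Black bars are list medians, from 1.34 for disease-associated microglia to -0.90 for neutrophil genes, and the dashed line is the median of 0.39 for genes with an average log2 CPM of at least 1.

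Of the 5663 genes that fell, 5382 had an average level under 1 on the log2 CPM scale, near the limit of detection. Olfactory receptors, known for their role in the nose, fell in 448 of 842 tested members and rose in 0, and vomeronasal receptors fell in 174 of 268 and rose in 0, both families being counted after their values were seen. Members of such families are similar in sequence. Counts were made from uniquely aligned reads, so reads that match several members can be missing. Pseudogenes fell in 1053 of 3847 members and long noncoding RNA genes in 2098 of 7706, against 49 and 55 rises. Genes with a predicted-gene name or no symbol fell in 3104 of 11465 cases and rose in 133. These falls, 27.4%, 27.2% and 27.1% of the members, were no more frequent than the 31.4% among all genes with an average level under 1. Outside the predicted and immunoglobulin genes, the largest fall among genes at a level of at least 1 with separated libraries was that of Olfr341, at 1.78, 2.90 and 6.45 CPM unlesioned and at 0.0867, 0.463 and 1.09 CPM at 4dpl (log2 fold change -2.84, standard error 0.47, adjusted p = 0.00197). These levels were low in every library, and the counts summed over the 6 libraries of a state were 1037 and 134.

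Others with separated libraries were Fau-ps2, a pseudogene of a ribosomal protein gene (-2.71, standard error 0.34), the vomeronasal receptors Vmn2r76 (-2.59, standard error 0.41) and Vmn2r52 (-2.43, standard error 0.37), Trdn, a protein of the muscle calcium release site (-2.53, standard error 0.53) and the epidermal lipid transporter Abca12 (-2.42, standard error 0.40). The large genes Pkhd1l1, Pkhd1, Lama1 and Muc6 were at -2.12 to -1.99, and the sperm protein gene Zan at -1.83 (standard error 0.24). The highest median of these genes in either state was 12.8 CPM, for Fau-ps2 in unlesioned tissue. The falls were accompanied by the lower number of genes with a count in the 4dpl libraries given above, and the part of that difference in them was not tested.

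Some falls lay at higher levels. Gm10800, a predicted gene on chromosome 2 named after its values were seen as the fall with the highest average level, was at 588, 980 and 3535 CPM unlesioned and at 87.2, 140 and 225 CPM at 4dpl (log2 fold change -3.06, standard error 0.44, adjusted p = 0.00148). Its groups did not overlap. Of 176 immunoglobulin genes, which B cells rearrange and plasma cells transcribe, 43 fell and 1 rose. The median average level of this class was low, at 0.53 on the log2 CPM scale. Its share of falls, 24.4%, lay between the 18.2% of all genes and the 31.4% of genes with an average level under 1. Igkv5-43, a variable segment of the kappa chain, was at 0.249, 6.22 and 82.4 CPM and at 0.0268, 0.0800 and 0.306 CPM (log2 fold change -7.03, standard error 1.41, adjusted p = 0.0036), with overlapping groups and a wide spread between unlesioned libraries, and the log2 fold change was -4.39 without mutant unlesioned replicate 2. Variable segments are alike in sequence, so reads that match several of them can be missing from counts of uniquely aligned reads.

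Neuronal lists held members with falls at low levels. Of 26 voltage-gated ion channel genes 0 rose and 6 fell (median -0.66), of 28 neurotransmitter receptor and synapse genes 0 rose and 6 fell (median -0.65), and of 18 neuron genes 0 rose and 1 fell (median -0.16). These shares of falls, 23.1%, 21.4% and 5.56%, stand beside 18.2% of all genes tested and 2.01% of those at a level of at least 1. The median average log2 CPM of the lists was 2.33, 2.04 and 2.70, and 6.28% of all genes between 1 and 3 fell. In the stricter scaling the falls were 12, 11 and 1. Without control unlesioned replicate 1 they were 10, 10 and 1, and without mutant 4dpl replicate 1 the receptor and synapse list had 3. The synaptic vesicle sensor Syt1 was at 4.395, 6.998 and 10.2 CPM unlesioned and at 1.71, 3.43 and 3.75 CPM at 4dpl, separated (log2 fold change -1.15, standard error 0.25, adjusted p = 0.00454). The calcium channel Cacna1c fell by 1.28 (standard error 0.31), the GABA receptor subunit Gabrb1 by 1.07 (standard error 0.30) and the glutamate receptor subunit Grin2a by 1.29 (standard error 0.37).

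The response was compared between genotypes by fitting each group its own mean. All 4564 genes that rose had a log2 fold change above 0 in the control and in the mutant, with medians of 0.78 and 0.71, and those that fell had medians of -2.40 in both. These genes were chosen on the pooled libraries, so shared direction is in part fixed by the choice. As contrasts of that fit of all 12 libraries, the control gave 1592 rises (5.12%) and 1558 falls (5.01%), and the mutant 7 rises (0.0225%) and 35 falls (0.113%). Fitted on the libraries of each genotype by themselves, the counts were 613 rises and 549 falls in the control and 40 rises and 732 falls in the mutant, so the order of the genotypes in falls depended on the fit. The difference between the genotypes in the response was called for 0 of 31109 genes by the same edgeR test, while 1184 passed 0.05 before adjustment. The counts per genotype thus differed without a called difference in any gene.

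Single genes illustrate this. Gpnmb was at 19.8, 148 and 805 CPM in control unlesioned and 4398, 4973 and 5022 CPM in control 4dpl libraries, and at 18.3, 228 and 444 CPM and 1347, 2443 and 2706 CPM in the mutant. The control log2 fold change was 3.89 (standard error 1.11) and that of the mutant 3.23 (standard error 1.08). Spp1 was at 2.96 (standard error 0.77) and 4.13 (standard error 0.81), Hmox1 at 2.41 and 4.11, and Gpx3 at 2.34 and 1.80. Col1a1 was at 2.54 in the control and 0.56 in the mutant (difference, mutant minus control, -1.98, standard error 0.58, adjusted p = 0.9999 by the edgeR interaction test).

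**Figure D4:**
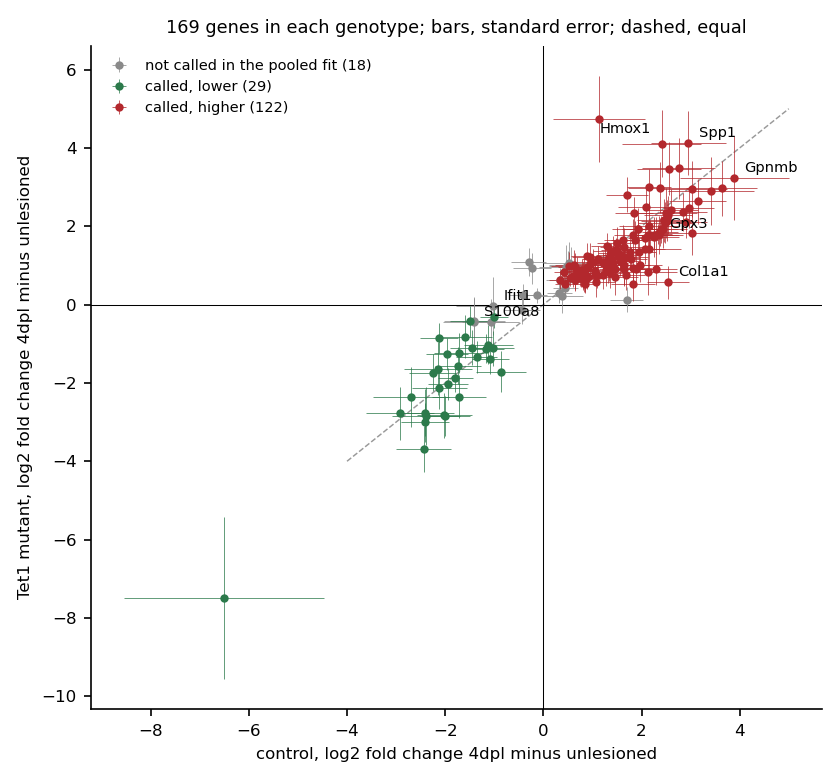
Log2 fold change after lesion in the control (horizontal) and the Tet1 mutant (vertical) for the genes named here, with standard errors as bars and the dashed line where both are equal. Gpnmb, at 3.89 and 3.23, and Spp1, at 2.96 and 4.13, lie at the upper right on either side of the line.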

How the data were processed

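RNA from oligodendroglial-enriched cell suspensions of adult mouse spinal cord was sequenced in 12 libraries, and each library has 1 deposited table of raw read counts per Ensembl gene. These counts were made by the authors from uniquely aligned reads assigned to exons with featureCounts and are not normalized. The submitters' processing notes name STAR, DESeq2 1.2.5 and the mm10 build, whereas the methods of the study name BWA as the aligner, and which aligner made the tables is not settled by the sources used here. Whether counting used strand is not given in the sources used here, so overlapping and antisense genes cannot be told apart. The 37 mitochondrial genes had a count of 0 in every library. Symbols were found for 54723 of the 54838 Ensembl identifiers.

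Groups were taken from the sample labels. Genes were kept with the default expression filter of edgeR 4.0.16 over the 4 groups (31109 kept), scaled by TMM, and tested with the quasi-likelihood test in R 4.3.3, with lesion state and genotype as additive terms. A gene was called, and is said to have risen or fallen, at a p-value under 0.01 and a Benjamini-Hochberg adjusted p-value under 0.05 over all genes tested, the thresholds of the study. Standard errors were taken from the log2 fold change and its F statistic. Within-genotype and interaction values come from a fit with 1 mean per group.

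The gene lists (42, with 863 distinct genes, of which 858 were tested), the alternatives and the comparison itself were chosen with earlier results of these data known. Named genes were the 12 largest rises and 12 largest falls among called genes with an average log2 CPM of at least 1 and separated libraries, the 8 smallest p-values in each direction, in each list the first genes and up to 4 called genes with the smallest p-values, and Tet1, Tet2, Tet3 and Olig1, without predicted and immunoglobulin genes, which were counted as classes. Not all of these are printed, and genes named after their values were seen are marked as such. Promoter windows are those of RefSeq for GRCm38.p6, matched by symbol. Alternatives were DESeq2 1.42.0, limma 3.58.1 voom with and without sample weights, other edgeR settings, scalings, filters and thresholds, single genotypes, replicate blocks and leaving out each library, and 1 scaling was added after the data were seen. Intervals are not given for single counts, and the depth of each library leaves little counting error in well-expressed genes. Some results are not reported here.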

Additional observations from a re-analysis of the deposited data

Results flagged for a closer look

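Within the 6 libraries of each state, 1 library stood apart from the others in 20 of 342 groups examined, by a gap to its nearest neighbour larger than the 95% critical share of the range for 6 values in Dixon's test (log2 of CPM plus 0.5 for the 169 named genes, and the unchanged value for total counts and genes with a count). Chance alone flags about 1 in 20 groups, or 17 here.

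Control unlesioned replicate 1 was the highest unlesioned library for Atp6v1a (142 CPM against 93.3 to 107), H2-Ab1 (643 CPM), Gdf15 (7.57 CPM against 1.54 to 2.15) and Fn1 (538 CPM against 88.6 to 151). It was the lowest for Emcn (0.883 CPM against 2.06 to 2.79) and for genes with a count (40023 against 42840 to 44516).

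Mutant 4dpl replicate 3 was the highest 4dpl library for Dhcr7 (138 CPM), Sirt2 (695 CPM against 343 to 369), Tet1 (21.5 CPM against 10.9 to 13.4) and Slc12a2 (428 CPM against 103 to 160). It was the lowest for Cxcl14 (10.1 CPM against 21.7 to 31.3) and Mki67 (41.1 CPM against 79.2 to 112).

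Mutant 4dpl replicate 2 was high for S100a8 (33056 CPM) and S100a9 (31084 CPM against 6337 to 10190). Mutant unlesioned replicate 2 was high for Mbp (6616 CPM against 3642 to 4409) and Aldoc (123 CPM against 84.3 to 94.1), and mutant unlesioned replicate 1 was low for Ebf1 (4.57 CPM against 7.503 to 9.22). Control 4dpl replicate 3 was high for Pdgfra (47.9 CPM against 20.6 to 25.99), control 4dpl replicate 1 low for Syt1 (1.71 CPM against 3.25 to 3.75) and control unlesioned replicate 2 low for Egr2 (48.6 CPM against 93.8 to 135). No named gene had libraries fully separated upward in one genotype and downward in the other (0 of 169).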

How the results depend on the processing

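The 151 named genes that were called kept their direction under every alternative run, and 130 of them were called in each of 12 fits that left out 1 library. The 21 others lost the call in 10 (Ebf1), 9 (B2m), 8 (Tmem119, Cebpd, Tubb5), 7 (Sc5d, Elane, Ccnd1), 6 (Dhcr7), 5 (Arg1, Spag17), 4 (Mrc1, H2-DMb1), 3 (P2ry12, Anln, Smug1), 2 (Grin2a, Lhfpl3) or 1 (Sirt2, Gabrb1, Pcna) of these fits, and 10 of 18 uncalled genes gained it in at least 1. Over those fits genes higher ranged from 3715 to 5897 and genes lower from 4257 to 6852.

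Counts of calls moved by more than 1.5 times from 4564 higher and 5663 lower as follows, with distinct list members (291 higher and 26 lower) beside them. Testing genes with at least 10 counts in every library gave 1919 and 1775, with 173 and 56 members, over fewer genes. The stricter scaling gave 1892 higher, with 175 and 60 members. Control libraries alone gave 613 and 549, with 89 and 11 members, and mutant libraries alone 40 and 732, with 23 and 5, from fewer samples. An adjusted p-value under 0.01 gave 2518 and 2466, with 15 members lower, and an absolute log2 fold change of at least 1 gave 861 higher, with 143 members. Members lower were 56 by DESeq2 and 44 by limma voom with sample weights. Where no reason is given, the cause was not tested.

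Libraries of a genotype share replicate numbers, but deviations from the group means of same-numbered libraries correlated across genes at 0.19, 0.05 and 0.19 in the control and -0.03, 0.07 and -0.07 in the mutant. Not every correlation was over 0.1, so the numbers were not taken as a pairing, although 8 of 12 libraries correlated best with their own number, a hint from the data toward one. By the number in the files of the study the correlations were -0.09 and -0.02 in the control and -0.03 and -0.09 in the mutant. The replicate block on these label numbers gave 4976 higher and 5311 lower genes, with 46 members lower. A replicate block by the number in the files of the study gave 2888 and 3300.

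Signs turned in uncalled genes. Tet3 (0.05) was at -0.045 by DESeq2, -0.044 with RLE, -0.24 with at least 10 counts in every library and in the stricter scaling, and -0.20 in the control alone. Tet1 (-0.08) was at 0.0085 without the filter, -0.24 to 0.011 with 1 library left out, positive without control unlesioned replicate 3, and 0.027 in the mutant alone. Ifit1 (-0.53) was at 0.29 by limma voom with sample weights, 0.55 with the block of the study and -0.84 to 0.50 with 1 library left out, positive without control unlesioned replicate 1. In the control alone Lamp1 was at -0.36 and Slc12a2 at -0.31, the latter at -0.0064 without mutant 4dpl replicate 3. In the mutant alone Ccr2 was at -0.012 and Pdgfra at -0.10. Tests of genes with few counts are limited by depth.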
